A study of Homo sapiens with 38 samples.

Results

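The genes described here are the protein-coding genes with the longest 3′ untranslated regions (UTRs), the stretch of an mRNA between the stop codon and the poly(A) tail. They were chosen from GENCODE release 44 as the genes whose MANE_Select transcript, the reference isoform shared by Ensembl and RefSeq, has a 3′ UTR of at least 5000 nt. The rule found 1300 of 19061 protein-coding genes (6.82%), of which 1127 had 5000 nt to under 10000 nt and 173 had 10000 nt or more. Their median 3′ UTR was 6640.5 nt long, and the longest, of 32870 nt, belonged to SMAD2, which encodes a transducer of TGF-β signals. They are compared below with 5911 genes whose 3′ UTR is shorter than 500 nt, and with the 210 of those 5911 whose transcript nevertheless has at least 5000 nt.

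The libraries were made from HCT116, a diploid line of human colorectal carcinoma cells, after separation into a cytoplasmic and a nuclear fraction. Wild-type cells were set beside 4 knockout lines labelled as knockouts of AGO1 alone, of AGO2 alone, of both (AGO1/2) and of these plus AGO3 (AGO1/2/3). Lists of values for the 4 lines below keep that order. There were 3 libraries in each of the 10 groups, numbered by cell passage, from passages 27, 28 and 29 of the wild type and from passages 6 to 14 of the knockouts. Because each knockout genotype is 1 line, and no wild-type library comes from the knockout passages, genotype, clone and passage cannot be told apart. Libraries of 1 line at different passages are not separate derivations of a knockout, so p-values measure the spread between passages. The samples came with 8 AGO2 binding (eCLIP) samples, which were not analysed here.

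Argonaute proteins hold a microRNA and use its seed, the bases near its 5′ end, to find matching sites, most of which lie in 3′ UTRs. In the cytoplasm the Argonaute complex recruits TNRC6 scaffold proteins and, through them, the machinery that shortens the poly(A) tail and degrades the mRNA. Loss of Argonaute is therefore known to raise many microRNA targets, and a long 3′ UTR has more room for sites, for binding sites of other RNA-binding proteins and for alternative poly(A) sites.

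To show what such a site looks like, 3 microRNAs and 1 site for each are printed here, from long 3′ UTRs of genes that textbooks give as their targets. The mature microRNAs are from RefSeq (GRCh38.p14), read 5′ to 3′, with the seed (bases 2 to 8) in capitals.
hsa-let-7a-5p: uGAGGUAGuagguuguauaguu
hsa-miR-21-5p: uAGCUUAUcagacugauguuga
hsa-miR-200b-3p: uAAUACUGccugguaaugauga

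The sites are windows of 3′ UTR on the strand of the gene, 5′ to 3′, in DNA letters, with the bases that pair with the seed in capitals, together with the base after them where it is an A. The let-7a window is in the 3′ UTR of TRIM71, a developmental regulator (GRCh38 chr3:32891967-32891990, plus strand), which holds 6 matches. The miR-21 window is in BMPR2, a BMP receptor (chr2:202567240-202567263, plus strand), with 3 matches, and the miR-200b window is in ZEB2, a repressor of epithelial genes (chr2:144388989-144389012, minus strand), with 5.
TRIM71, let-7a: caacattgcttaagtcCTACCTCA
BMPR2, miR-21: aatggacaggagaaacATAAGCTA
ZEB2, miR-200b: tcgcactacaatgcatCAGTATTA

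Counted over 16 microRNAs, a long 3′ UTR held a median of 11 seed matches (7 bases, sense strand of the 3′ UTR) and a short one a median of 0, but the density was alike, at 1.62 and 1.65 matches per kb. Every long 3′ UTR held at least 1 match, whereas 71.8% of the short ones held none. The let-7a match CTACCTC was present in 35.2% of long 3′ UTRs and in 9.70% of those of all 19061 genes. A match is only a run of letters, and the microRNAs themselves were not measured here.

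The long 3′ UTR genes shared other features that the rule did not use. Their 3′ UTRs had a median of 60.5% A and T, against 53.9% for the short ones. The poly(A) signal AATAAA was found in the last 50 nt of 70.8% of long and 60.0% of short 3′ UTRs. Their whole transcripts had a median GC content of 42%, against 53.9%, and their genes spanned a median of 70958.5 bases, against 9515. The 3′ UTR made up 79.3% of the transcript at the median.

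The RNA was quantified by the authors per transcript of an annotation older than release 44, so the deposited transcript does not always carry the long 3′ UTR. Of the 1300 genes, 1298 were in the files and 1206 had their MANE_Select transcript there. In 821 it was within 500 nt of its current length, and in 348 it was over 1000 nt shorter. After the filter on low counts 1042 of the genes were tested in the cytoplasm and 1045 in the nucleus, 1034 in both and 247 in neither. The others of the 1300 did not pass the filter or were not in the files.

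Total estimated reads per library ran from 39476205 to 43281746 in the cytoplasmic wild type and from 66451720 to 79731793 in the cytoplasmic knockouts. In the nucleus they ran from 20431557 to 26536692 in the wild type and from 31252459 to 54097984 in the knockouts, so the wild type was the shallowest group in both fractions. Of 8 epithelial markers 7 had a mean of at least 1 TPM (a length-scaled share of a library's transcripts), with villin (VIL1) near 0, while 6 of 7 fibroblast, 4 of 6 leukocyte and all 4 endothelial markers had a mean below 0.1 TPM. MALAT1, a nuclear RNA, had a mean of 3041 TPM in nuclear and 119 TPM in cytoplasmic wild-type libraries. The summed level of 4 nuclear RNA markers in the nuclear fraction was 2791 to 3667 TPM in wild type and 1260 to 2166 TPM in the knockouts, with no overlap. The 6 cytoplasmic RNA markers summed there to 4437 to 5413 TPM in wild type and 5322 to 9444 TPM in the knockouts. This shift between genotypes in the nuclear libraries stands beside every nuclear result below, and its part in them was not tested.

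The Argonaute genes are themselves long 3′ UTR genes, so the targeted RNAs were examined first. AGO1 (3′ UTR of 10925 nt) stood at 159, 158 and 141 CPM (counts scaled to library size) in the cytoplasmic wild type at passages 27, 28 and 29. It stood at 13.3, 14.3 and 13.2 CPM in the AGO1 knockout, 15.8, 17.3 and 17.1 in AGO1/2, and 15.3, 16.1 and 15.6 in AGO1/2/3. Every library of these 3 lines was below every wild-type library, and those of the AGO2 knockout (171, 174 and 173 CPM) were above them, without passing the test (adjusted p = 0.065). AGO1 RNA fell by 3.49, 3.19 and 3.29 on the log2 scale in the cytoplasm of these 3 lines and by 1.25, 1.90 and 1.70 in their nuclei (edgeR adjusted p at most 4e-08). The fall was smaller in the nucleus, where AGO1 kept 63.9, 60.4 and 61.5 CPM in the AGO1 knockout against 156, 155 and 130 CPM in wild type.

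AGO2 RNA (3′ UTR of 11888 nt), whose protein is the Argonaute able to cut its target, fell 1.59-fold in the cytoplasm of the AGO2 knockout, from 421, 409 and 362 to 253, 246 and 251 CPM. In AGO1/2 cytoplasm it stood at 473, 534 and 469 CPM, higher than wild type (log2 fold change 0.31 ± 0.07 SE, edgeR adjusted p = 0.0027). In AGO1/2/3 cytoplasm it differed by 0.11 ± 0.07 (adjusted p = 0.26), a value that became −0.14 with counts scaled by transcript length and −0.39 on log2(TPM + 1). In the nucleus AGO2 stood at 535, 498 and 455 CPM in wild type, 375, 340 and 357 in the AGO2 knockout, 445, 483 and 387 in AGO1/2, and 369, 370 and 354 in AGO1/2/3. It fell there in the AGO2 knockout and in AGO1/2/3 (−0.47 ± 0.08 and −0.44 ± 0.08, edgeR adjusted p = 0.00025 and 0.00016), and its value in AGO1/2 was −0.18 ± 0.08 (adjusted p = 0.054). AGO2 RNA was thus lower in the nucleus but not in the cytoplasm of AGO1/2/3 and passed as lower in neither fraction of AGO1/2. The groups are named by their labels.

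AGO3 (3′ UTR of 16755 nt) lies next to AGO1 on chromosome 1 and is targeted only in the AGO1/2/3 line. In the nucleus it stood at 174, 188 and 160 CPM in wild type and at 144, 138 and 141 CPM in AGO1/2/3. It fell in the nucleus of all 4 knockouts, by 0.35, 0.19, 0.28 and 0.30 on the log2 scale (edgeR adjusted p 0.021 or less). With counts scaled by transcript length the AGO1/2/3 value was −0.17 and no longer passed. In the cytoplasm it rose in AGO2, AGO1/2 and AGO1/2/3 (0.28, 0.37 and 0.34) and differed by 0.05 in AGO1. Cytoplasmic AGO3 was 70.2, 74.7 and 59.3 CPM in wild type and 83.3, 87.4 and 87.2 CPM in AGO1/2/3, with no overlap. On log2(TPM + 1) that difference was 0.05 and did not pass. The difference between the cytoplasmic and nuclear effects in AGO1/2/3 was 0.66 ± 0.14 (edgeR interaction, adjusted p = 0.0089).

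TNRC6B (3′ UTR of 12567 nt), the scaffold that links Argonaute to deadenylation, is the fourth long 3′ UTR gene among 13 genes of the RNA interference machinery. It rose in the nucleus of AGO1/2 and AGO1/2/3 (0.39 ± 0.07 and 0.48 ± 0.07, edgeR adjusted p = 0.00011 and 2.3e-05). Its nuclear level was 294, 292 and 286 CPM in wild type and 392, 386 and 435 CPM in AGO1/2/3. The nuclear AGO1/2/3 value was 0.19 on log2(TPM + 1) and 0.47 with reads of the MANE_Select transcript only, and neither passed. In AGO1/2/3 cytoplasm TNRC6B rose by 0.31, a call lost on leaving out any single library of AGO1/2/3 or wild type. That value was 0.13 with counts scaled by transcript length, which did not pass, and −0.12 on log2(TPM + 1). Of the other 9 machinery genes, 3 were higher and 1 was lower in AGO1/2/3 nuclei, where 29.1% and 29.5% of all genes tested were called.

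**Figure D1:**
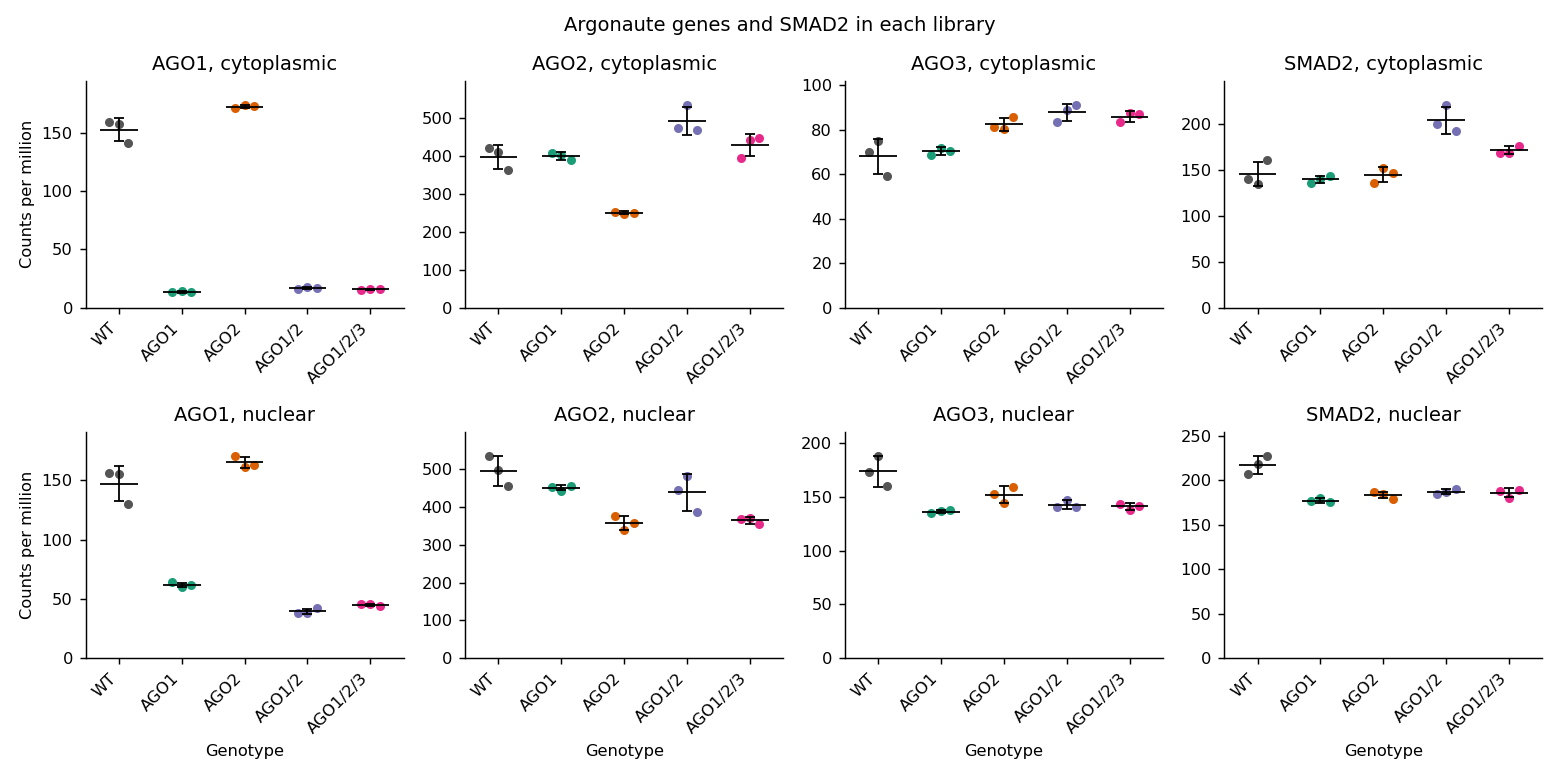
CPM of AGO1, AGO2, AGO3 and SMAD2 in each library (points), with the mean (line) and SD of 3 libraries (bars), for the cytoplasmic fraction (top) and the nuclear fraction (bottom). AGO1 is low in the AGO1, AGO1/2 and AGO1/2/3 groups, AGO2 is lowest in the cytoplasmic AGO2 knockout at 246 to 253, and AGO3 and SMAD2 lie below the wild type in the nuclei of all 4 knockouts.

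As a group, the long 3′ UTR genes moved little in the cytoplasm and stood lower than short 3′ UTR genes in the nucleus. In the cytoplasm the 3313 short 3′ UTR genes tested had median log2 fold changes of 0.04, 0.04, −0.02 and −0.02 in the 4 lines. The median cytoplasmic log2 fold change of the 1042 long 3′ UTR genes tested was −0.05, −0.05, −0.06 and −0.03, against −0.01, −0.00, −0.01 and −0.01 over all 17605 genes tested. In the nucleus it was −0.13, −0.08, −0.04 and −0.05, while the 3326 short 3′ UTR genes had medians of 0.11, 0.14, 0.21 and 0.18 and all 18919 genes had −0.03, −0.02, −0.06 and −0.03. All 4 comparisons of a fraction use the same 3 wild-type libraries. In bulk RNA, less RNA per cell and fewer cells with that RNA cannot be told apart.

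Counted by the edgeR test at an adjusted p of 0.05, 53 long 3′ UTR genes were higher and 125 lower in AGO1 knockout cytoplasm, where 4.28% and 8.13% of all genes tested were called. In the cytoplasm of AGO2 the counts were 82 higher and 159 lower, with 7.07% and 9% of all genes called. AGO1/2 cytoplasm had 287 higher and 363 lower, with 23.9% and 25.4% of all genes. AGO1/2/3 cytoplasm had 217 higher and 303 lower, with 18.6% and 20% of all genes. The share of the 1042 called lower was thus 12.0%, 15.3%, 34.8% and 29.1%, above the background in each line, and the share called higher was 5.09%, 7.87%, 27.5% and 20.8%, close to it.

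In the nucleus 87 were higher and 337 lower in the AGO1 knockout, with 14.3% and 15.6% of all genes called, and 161 were higher and 348 lower in AGO2, with 20.2% and 19.9%. In AGO1/2 the counts were 359 and 388, with 32.9% and 34.7% of all genes called, and in AGO1/2/3 they were 306 and 388, with 29.1% and 29.5%. In AGO1/2 and AGO1/2/3 nuclei 34.4% and 29.3% of the long 3′ UTR genes were thus higher, and 37.1% were lower in each. For genes with a 3′ UTR of 2000 nt to under 5000 nt, 44.4% and 38.2% were higher and 28.1% and 27.4% lower. The short 3′ UTR genes leaned the other way, with 944 higher and 338 lower in AGO1, 1113 and 374 in AGO2, 1497 and 733 in AGO1/2, and 1355 and 662 in AGO1/2/3.

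The balance of higher and lower calls moved with the scale. Between the edgeR fit and log2(TPM + 1) it moved least in AGO1/2 nuclei. On log2(TPM + 1), tested with limma, the median of all genes was itself between −0.20 and −0.07, and the long 3′ UTR genes called became 18 higher and 233 lower, 16 and 404, 93 and 627, and 95 and 491 in the cytoplasm of the 4 lines in the same order. In the nucleus they became 9 and 480 for AGO1, 20 and 486 for AGO2, 267 and 369 for AGO1/2 and 129 and 471 for AGO1/2/3. No share of all genes called is given for this scale, so these counts alone do not set the long 3′ UTR genes apart. The nuclear distance between long and short 3′ UTR genes kept its sign on each scale. The median of the long minus that of the short was −0.24, −0.23, −0.25 and −0.23 in the 4 lines, and −0.18, −0.17, −0.17 and −0.15 on log2(TPM + 1). Counting only reads of the MANE_Select transcript it was −0.34, −0.33, −0.55 and −0.42. With these reads 931 long 3′ UTR genes of 11753 genes were tested, and the calls in AGO1/2 nuclei became 141 higher and 453 lower. No share of all genes called is given for these reads, so this count alone does not set the long 3′ UTR genes apart.

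The nuclear medians were lower in longer classes of 3′ UTR. In AGO1/2/3 the median nuclear log2 fold change was 0.18 below 500 nt, 0.17 from 500 to under 1000 nt, 0.14 from there to 2000 nt and 0.09 from there to 5000 nt. It was −0.01 from 5000 to under 10000 nt and −0.27 for the 140 genes with 10000 nt or more. Those 140 had medians of −0.19, −0.21 and −0.29 in AGO1, AGO2 and AGO1/2. Of the 140, 9 were higher and 60 lower in AGO1, 15 and 68 in AGO2, 33 and 76 in AGO1/2, and 24 and 80 in AGO1/2/3. In the cytoplasm the medians of the 6 length classes lay between −0.05 and −0.01 in AGO1/2/3, and between −0.05 and 0.04 in AGO1 and in AGO2. The 151 tested genes with a long transcript but a short 3′ UTR also stood lower in the nucleus, at −0.09, −0.13, −0.25 and −0.16, so a low nuclear median was not particular to a long 3′ UTR.

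**Figure D2:**
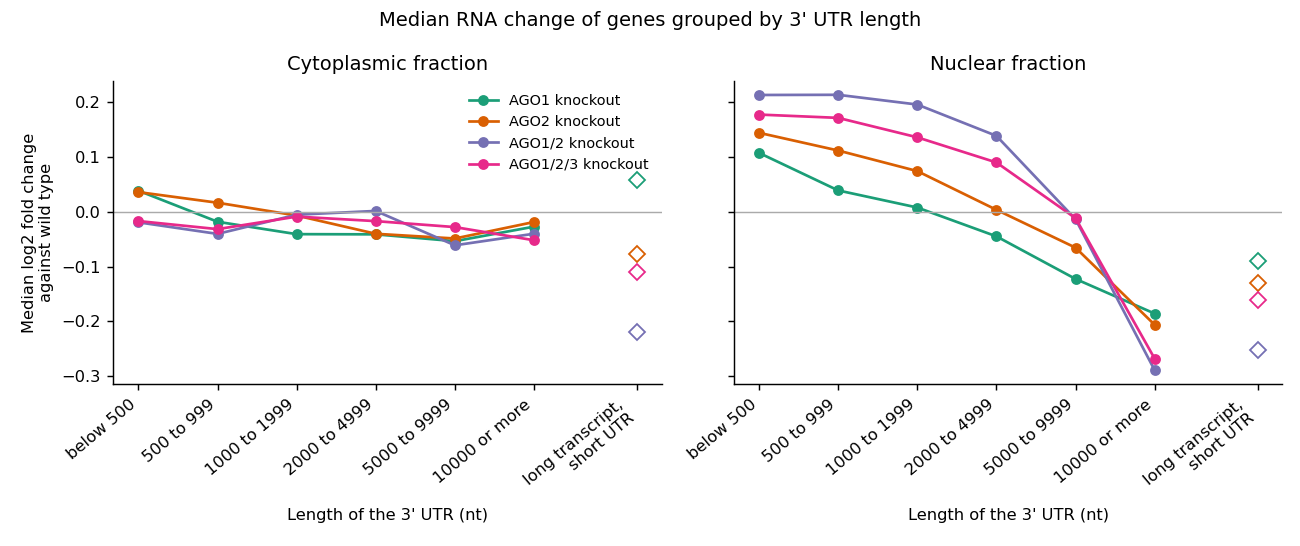
Median log2 fold change against wild type (vertical axis) of genes in 6 classes of 3′ UTR length (horizontal axis) in the cytoplasmic (left) and nuclear (right) fraction, with 1 line per knockout and open diamonds for genes with a transcript of at least 5000 nt but a 3′ UTR below 500 nt. In the nucleus the medians fall from between 0.11 and 0.21 for the shortest class to between −0.29 and −0.19 for the longest, while the cytoplasmic lines stay between −0.06 and 0.04.

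The nuclear shift was visible in every nuclear knockout library. Long 3′ UTR genes took 8.93% ± 0.10 (SD, n = 3) of the nuclear reads in wild type, from 8.83% to 9.04%. In the 12 nuclear knockout libraries they took 7.82% to 8.13%, all below the wild type. In the cytoplasm the share was 6.31% to 6.56% in wild type and 5.78% to 6.38% in the knockouts. These overlapped as a whole, but the AGO2 libraries (5.96% to 6.20%) were all below the wild type. The median of long minus short 3′ UTR genes, against the wild-type mean, was −0.26 to −0.19 in the nuclear knockout libraries and −0.03 to 0.02 in the nuclear wild type. In the cytoplasm it was −0.12 to −0.07 in AGO1 and −0.17 to −0.04 in AGO2, all below the wild type (−0.03 to 0.02). Cytoplasmic AGO1/2 (−0.12 to 0.03) and AGO1/2/3 (−0.07 to 0.02) overlapped the wild type.

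**Figure D3:**
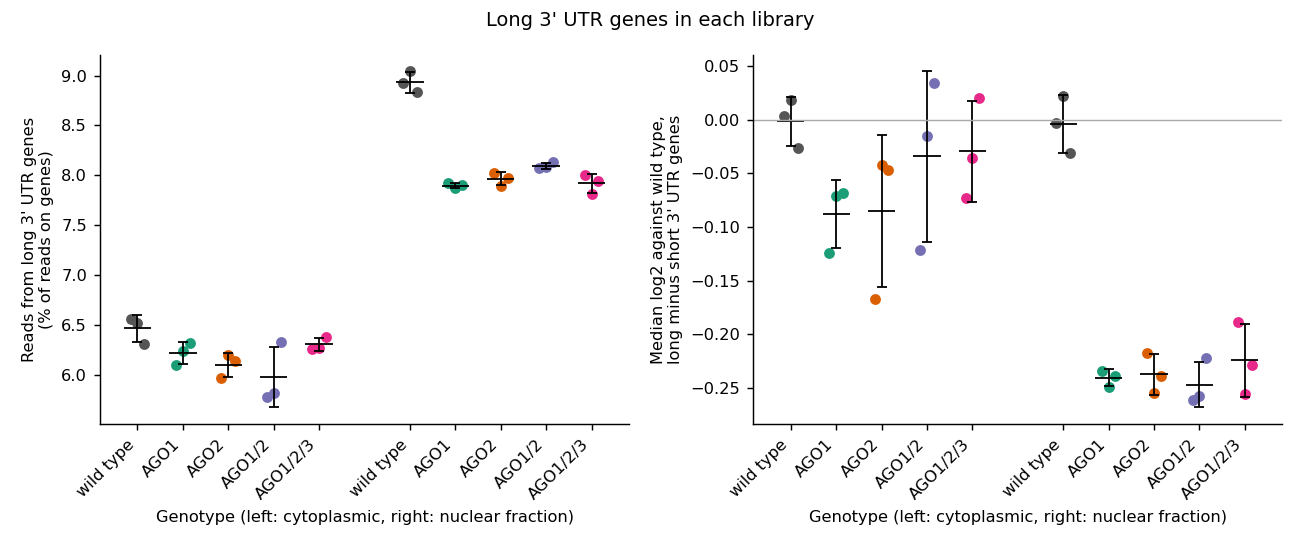
Share of reads from long 3′ UTR genes (left panel, percent) and median log2 difference of long minus short 3′ UTR genes against the wild-type mean (right panel) in each library (points), with mean and SD of 3 libraries (bars), cytoplasmic groups on the left and nuclear groups on the right of each panel. The 12 nuclear knockout libraries lie below the 3 nuclear wild-type libraries in both panels. In the cytoplasm every AGO1 and AGO2 library lies below the wild type in the right panel, while AGO1/2 and AGO1/2/3 overlap it. In the left panel only AGO2 lies wholly below the cytoplasmic wild type.

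GC content moved with the nuclear change. Among transcripts below 42% GC, the nuclear median in AGO1/2/3 was −0.17 for 522 long 3′ UTR genes and −0.27 for 363 short ones. From 42% to 48% GC it was −0.01 for 290 long and −0.03 for 538 short 3′ UTR genes. At 48% GC or more it was 0.13 for 233 long and 0.27 for 2425 short. Within the 2 lower bands the long 3′ UTR genes of the AGO1/2/3 line were thus no lower than the short ones. In AGO1/2 the 3 bands gave −0.14 and −0.20, 0.01 and 0.02, and 0.13 and 0.30 for long and short, and in AGO2 −0.16 and −0.16, −0.05 and 0.02, and 0.08 and 0.21. In the AGO1 knockout the long 3′ UTR genes were lower in every band, at −0.17 and −0.05, −0.10 and 0.09, and −0.07 and 0.14.

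**Figure D4:**
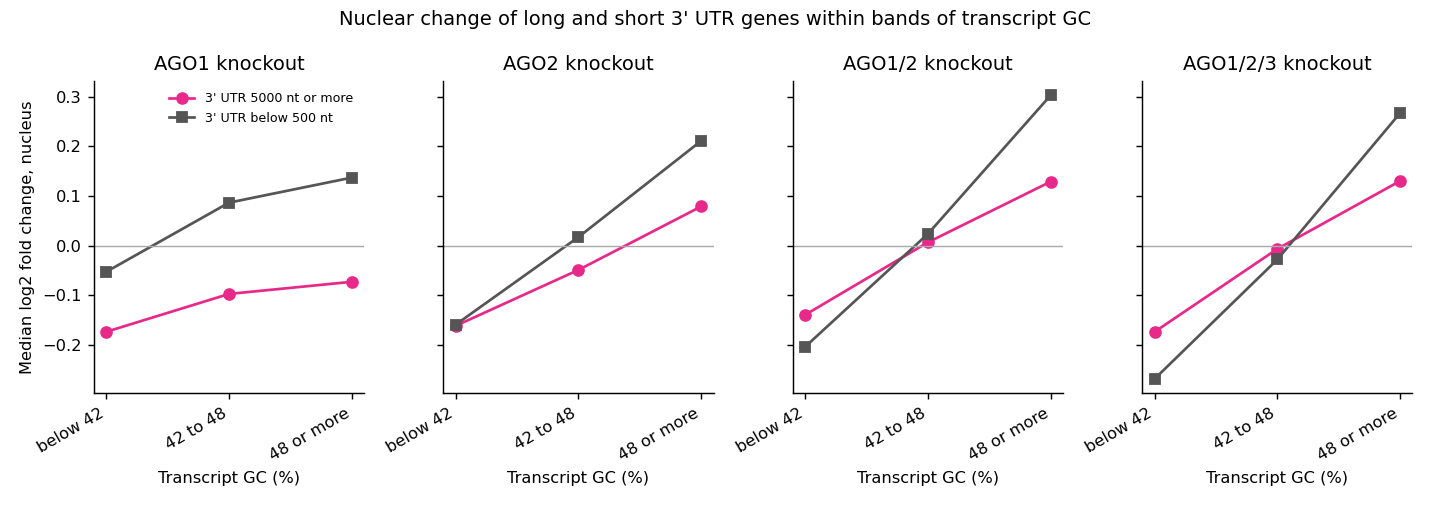
Median nuclear log2 fold change (vertical axis) of long (circles) and short (squares) 3′ UTR genes in 3 bands of transcript GC content (horizontal axis, percent), 1 panel per knockout. Both kinds of gene rise with GC in each panel, the AGO1 panel keeps the long 3′ UTR genes lower throughout, and in the AGO1/2/3 panel the medians at the lowest GC are −0.17 for long and −0.27 for short 3′ UTR genes.

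Gene span also moved with the nuclear change. Among genes spanning 70000 nt or more, which held 500 of the 1045 long 3′ UTR genes, the nuclear medians of long and short 3′ UTR genes were −0.19 and −0.12 in AGO1, −0.17 and −0.22 in AGO2, −0.12 and −0.32 in AGO1/2, and −0.13 and −0.28 in AGO1/2/3. The long 3′ UTR genes were thus the higher ones in 3 of the 4 lines. From 20000 nt to under 70000 nt the AGO1/2/3 medians were 0.03 for 430 long and 0.07 for 864 short 3′ UTR genes. Below 20000 nt they were 0.01 for 115 long and 0.27 for 2116 short. The part of gene span and of GC content in the nuclear difference was not tested.

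The share of reads on transcripts annotated as retaining an intron was also lower in the knockout nuclei. Of the reads of long 3′ UTR genes, 5.20% to 5.40% fell on such transcripts in wild-type nuclei, 4.80% to 5.00% in AGO1, 4.30% to 4.38% in AGO2, 3.25% to 3.41% in AGO1/2 and 3.53% to 3.79% in AGO1/2/3. Every knockout library was below every wild-type library. For short 3′ UTR genes the share was 10.8% to 11.4% in wild type and 4.86% to 9.22% in the knockouts. The part of this difference in the nuclear changes was not tested.

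Among single genes the changes were far larger than the group medians. The genes named next are those with the largest change in each comparison among called genes with a mean of at least 5 CPM and no overlap with wild type. That mean is over both groups compared, so genes scarce in wild type, such as ST8SIA6 and PTCHD4, reached it only through their rise. With 3 libraries against 3, an exact permutation test of 1 gene cannot give a p under 0.1, so the p-values given are from the edgeR fit over all genes. Genes named below whose deposited MANE_Select transcript was over 1000 nt shorter than its current length included ST8SIA6, SLC30A10, GALNT5, CDK6 and CREB1. Those without a deposited MANE_Select transcript included COBLL1, CSRNP3, TRIM66 and ARHGAP26.

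ZNF704, a zinc finger protein with a 3′ UTR of 12915 nt, had the largest fall in AGO1/2 and AGO1/2/3. In the nucleus it stood at 82.0, 86.5 and 70.5 CPM in wild type and at 0.547, 0.497 and 0.378 CPM in AGO1/2/3, 166-fold lower (log2 fold change −7.37 ± 0.14, adjusted p = 3.8e-14). It was lower in AGO1 (34.0, 35.8 and 36.2 CPM) and higher in AGO2 (113, 118 and 125 CPM), so the single and double knockouts did not line up in 1 direction. The cytoplasmic AGO1/2/3 change was −7.14 ± 0.20.

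DCLK1, a kinase that binds microtubules (3′ UTR of 5883 nt), had the largest rise in the same lines. Its nuclear level was 1.90, 1.30 and 1.62 CPM in wild type, 125, 155 and 98.5 CPM in AGO1/2 and 56.6, 53.8 and 57.6 CPM in AGO1/2/3. The AGO1/2/3 rise was 34.5-fold (5.11 ± 0.18, adjusted p = 1.5e-11). In the AGO2 knockout the same gene was at 0.0278, 0.0286 and 0 CPM, far below wild type, and in AGO1 it stood at 0.618, 0.795 and 0.881 CPM. The lines that share the loss of AGO2 thus stood on opposite sides of the wild type.

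SEMA3A, a secreted guidance cue for axons (3′ UTR of 5594 nt), had the largest cytoplasmic fall in the AGO2 knockout. It stood at 58.7, 68.9 and 63.3 CPM in wild type, 1.58, 1.77 and 2.05 CPM in AGO2, and 106, 124 and 133 CPM in AGO1. Its log2 fold change was −5.15 ± 0.23 in AGO2, −4.61 ± 0.22 in AGO1/2 and −3.71 ± 0.20 in AGO1/2/3, and 0.92 ± 0.18 in AGO1 (adjusted p 0.0039 or less). All knockout libraries were outside the wild-type range, which the choice of the gene required in AGO2 and AGO1/2.

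PRKAA2, the α2 catalytic subunit of the energy sensor AMPK (3′ UTR of 7622 nt), was at or near 0 in both single knockouts. In the nucleus it stood at 12.5, 11.8 and 15.7 CPM in wild type and at 0 in all 3 AGO1 libraries, at least 134-fold lower against a floor of 3 counts per library. The nuclear AGO2 libraries gave 0, 0.457 and 0 CPM. The double and triple knockouts had 11.7, 12.3 and 12.8 CPM and 12.1, 12.6 and 11.5 CPM, with log2 fold changes of −0.12 ± 0.26 and −0.15 ± 0.26 (adjusted p = 0.7 and 0.65).

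PTCHD4, a membrane protein related to the Hedgehog receptor Patched, had the largest rise in AGO1, from 1.51, 1.59 and 1.97 to 10.9, 12.3 and 14.3 CPM in the cytoplasm (2.88 ± 0.21, adjusted p = 8.1e-07). It was lower than wild type in the other 3 lines, at −1.19, −0.79 and −1.19. Its 3′ UTR has 21630 nt in release 44, but the transcript in the files has only 2850 nt in all, so its reads were not counted over that UTR. The same holds for SH3TC2, an adaptor of endocytic recycling, with a 3′ UTR of 22561 nt and a deposited transcript of 4059 nt. SH3TC2 rose from 22.1, 23.8 and 20.5 CPM in wild-type nuclei to 84.2, 86.3 and 78.2 CPM in AGO1/2 (1.91 ± 0.08, adjusted p = 1.2e-10) and fell to 14.2, 11.4 and 12.4 CPM in AGO1.

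Other genes with the largest falls in AGO1/2 and AGO1/2/3 included a transcription factor and an adaptor. MEF2C, a MADS box factor of muscle and neurons, fell from 28.5, 27.9 and 23.1 to 0.756, 0.588 and 0.786 CPM in AGO1/2 cytoplasm, a call that was lost with reads of its MANE_Select transcript only (−1.38). C1orf21 fell by 4.40 on the log2 scale in AGO1/2/3 cytoplasm, COBLL1 fell by 5.65, and PAG1, which anchors the kinase CSK at the membrane, fell from 8.09, 6.89 and 9.15 to 0.202, 0.197 and 0.0944 CPM. In none of these 4 genes did a library of the double or triple knockout overlap the wild type, but the choice of a gene required this in the comparison that named it.

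The largest rises in these lines included LIPG (endothelial lipase), EMP1 (an epithelial membrane protein) and ST8SIA6 (a sialyltransferase). Nuclear LIPG rose from 1.30, 1.09 and 1.93 to 19.6, 23.9 and 23.2 CPM in AGO1/2/3 (3.96 ± 0.35, adjusted p = 1.7e-07). It was lower in AGO1, at 0.195, 0.573 and 0.163 CPM. Nuclear EMP1 rose from 22.2, 20.7 and 35.5 to 112, 122 and 108 CPM, and cytoplasmic ST8SIA6 from 1.75, 1.15 and 1.42 to 8.15, 8.53 and 9.71 CPM in AGO1/2.

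Of the 1034 tested in both fractions, 30 (2.90%) were called in all 8 comparisons, against 1.57% of all 16723 genes tested in both. Of these, 3 were higher in all 8 (TRHDE, GALNT5 and PTPN14), or 0.290% against 0.395% of all genes. A further 13 were lower in all 8, or 1.26% against 0.496%, and 14 changed direction between lines or fractions. The 8 comparisons share their wild-type libraries. TRHDE, a peptidase that degrades thyrotropin-releasing hormone, stood at 3.17, 2.47 and 2.68 CPM in wild-type cytoplasm and 9.17, 7.86 and 8.37 CPM in AGO2. PTPN14, a tyrosine phosphatase that restrains YAP, rose from 184, 184 and 148 to 475, 487 and 488 CPM in AGO1/2/3 nuclei (1.49 ± 0.09, adjusted p = 4.3e-09). GALNT5, an enzyme of mucin-type glycosylation, rose by 0.56 to 1.54 on the log2 scale. On log2(TPM + 1) TRHDE no longer passed in AGO2 or AGO1/2/3, in either fraction.

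The 13 that were lower in all 8 included CNTNAP2, CREB5, CSRNP3, GNAQ, GRIN2B, PAG1, RNF152, RUBCNL, SCIN, SLC30A10, SLCO5A1 and TNFAIP8. CSRNP3, a nuclear protein, was low in wild type, at 0.774, 0.795 and 0.674 CPM in the nucleus, and at 0 in all 3 nuclear AGO1/2 libraries, at least 12.0-fold lower. SLC30A10, a manganese exporter, stood at 1.48, 1.51 and 0.989 CPM in wild-type nuclei and at 0 in the 3 AGO2 libraries, at least 15.2-fold lower. SLCO5A1, of the organic anion transporter family, fell from 0.845, 0.627 and 0.854 to 0.0476, 0 and 0 CPM in AGO1/2/3 nuclei. GRIN2B, a subunit of the NMDA receptor with a 3′ UTR of 25446 nt, stood at 168, 162 and 109 CPM in wild-type nuclei and at 92.9, 81.6 and 83.7 CPM in AGO1/2/3.

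The textbook microRNA targets allow the question whether known targets with a long 3′ UTR rise without Argonaute. Of 45 such genes 15 were long 3′ UTR genes, and 12 of these were tested. TRIM71, CCND2 and ZEB2 were too scarce, with no library above 0.293 CPM. In AGO1/2/3 nuclei 2 of the 12 rose and 8 fell, with a median of −0.47, while among the other 30 targets 14 rose and 7 fell, with a median of 0.27. In AGO1/2/3 cytoplasm 4 rose and 6 fell among the 12 (median −0.28), against 11 and 7 of the other 30 (median 0.15). Over all genes tested the medians were −0.03 in the nucleus, with 29.1% higher and 29.5% lower, and −0.01 in the cytoplasm, with 18.6% and 20%.

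BMPR2 and IGF2BP1 were the 2 of the 12 that rose in both fractions of AGO1/2/3. BMPR2, whose miR-21 site is printed above, rose from 40.4, 40.5 and 39.7 to 66.5, 63.3 and 67.4 CPM in the nucleus (0.71 ± 0.06, adjusted p = 5e-08) and by 0.58 ± 0.13 in the cytoplasm. It fell in the nucleus of AGO1 and AGO2, at −0.46 and −0.25. On log2(TPM + 1) the AGO1/2/3 values for BMPR2 were 0.20 and 0.23 in nucleus and cytoplasm, and neither passed. IGF2BP1, an oncofetal RNA-binding protein and let-7 target, rose from 0.915, 0.920 and 1.03 to 2.24, 2.01 and 2.48 CPM in the nucleus (1.23 ± 0.23, adjusted p = 0.00028). Its cytoplasmic call was lost with counts scaled by transcript length (0.54), on log2(TPM + 1) (0.04), on log2(TPM + 0.1) (0.20) and without the wild-type library of passage 28 (0.58).

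SMAD2 rose in the cytoplasm (0.24 ± 0.07, adjusted p = 0.018) and fell in the nucleus (−0.23 ± 0.05, adjusted p = 0.0011), from 207, 218 and 228 to 188, 180 and 189 CPM. Its nuclear value became 0.22 with counts scaled by transcript length, and on log2(TPM + 1) neither value passed (0.05 in the cytoplasm and −0.07 in the nucleus). The cytoplasmic call of SMAD2 was also lost with only the 2 groups in the fit (0.23), without AGO1/2/3 passage 14 (0.22) and without wild-type passage 27 (0.22) or 28 (0.19). The nuclear call was lost with no filter on low counts (−0.16).

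The targets that fell included BCL2, an inhibitor of apoptosis and textbook target of miR-16. Its nuclear level was 9.01, 8.70 and 6.65 CPM in wild type and 1.47, 1.54 and 2.0 CPM in AGO1/2/3 (−2.29 ± 0.14, adjusted p = 3.9e-09). It was higher than wild type in AGO1 cytoplasm (0.52 ± 0.15, adjusted p = 0.036). The deposited BCL2 transcript has 3209 nt of the current 6881. ARHGAP26, a GTPase activator, fell by 1.94 and 1.61 in nucleus and cytoplasm, FZD3, a Wnt receptor, by 1.03 and 0.96, and ONECUT2, a homeobox factor, by 1.18 and 0.42.

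CDK6, a cell cycle kinase, stood at 294, 282 and 218 CPM in wild-type nuclei and 197, 191 and 188 CPM in AGO1/2/3 (−0.46 ± 0.12, adjusted p = 0.004). Its cytoplasmic value of −0.48 ± 0.14 no longer passed without the wild-type library of passage 27 or that of passage 28. With MANE_Select reads only it was −0.34 and did not pass, and the deposited CDK6 transcript has 1465 nt of the current 11663. NUFIP2, an RNA-binding protein, fell in the nucleus (−0.56 ± 0.05), as did CREB1, a cAMP-responsive factor (−0.37 ± 0.06). The CREB1 call was lost with counts scaled by transcript length (−0.25) and with MANE_Select reads only (−0.80). For IGF1R, the insulin-like growth factor receptor, the 3 AGO1/2/3 cytoplasmic libraries gave 0, 2.06 and 1.55 CPM, and its change of −0.31 ± 0.73 turned to 0.29 without the library at 0. Its MANE_Select transcript was not in the files.

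**Figure D5:**
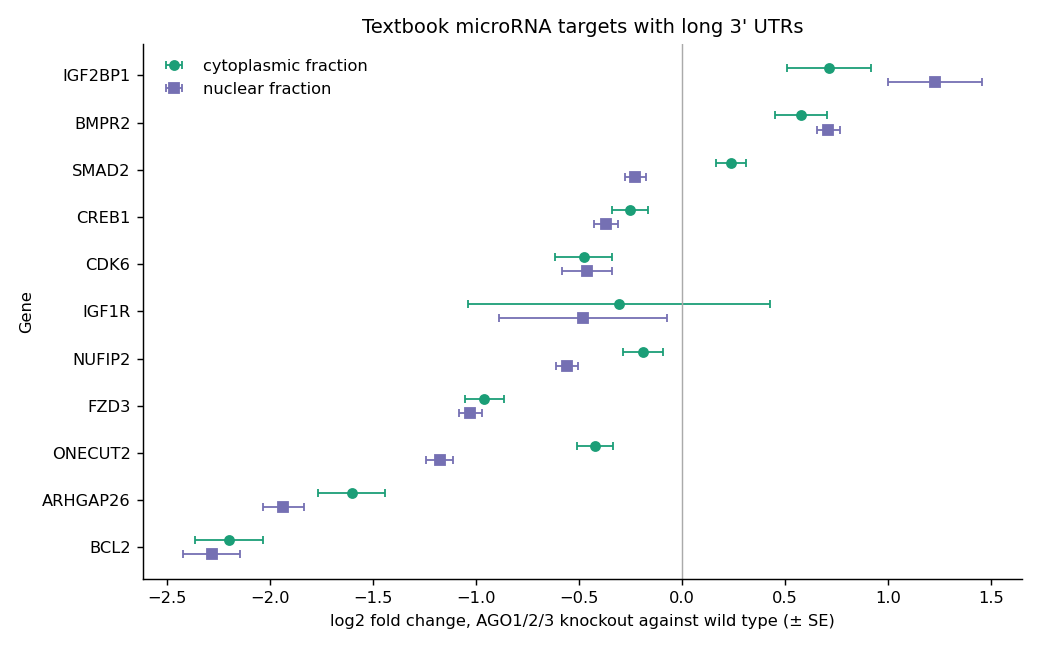
log2 fold change of AGO1/2/3 knockout against wild type (horizontal axis, ± SE from the edgeR fit on 3 libraries a group) for 11 of the 12 textbook microRNA targets with a long 3′ UTR that were tested (vertical axis), in the cytoplasm (circles) and nucleus (squares). IGF2BP1 and BMPR2 lie to the right of 0 in both fractions, BCL2 and ARHGAP26 lie below −1.5 in both, and SMAD2 lies on opposite sides of 0.

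Genes with and without a seed match were also compared within the long 3′ UTR genes. For the 16 microRNAs the median of genes with a match minus that of genes without ran from −0.06 to 0.07 in AGO1/2/3 cytoplasm, with 8 of 16 below 0. In AGO1/2/3 nuclei it ran from −0.15 to 0.07, with 12 of 16 below 0. In the AGO1/2 line the range was −0.05 to 0.10 in the cytoplasm and −0.15 to 0.10 in the nucleus. For genes with 3 or more matches the median minus that of genes without ran from −0.08 to 0.19 in AGO1/2 cytoplasm, with 11 of 16 above 0, and from −0.07 to 0.15 in AGO1/2/3 cytoplasm, with 12 of 16 above 0. In their nuclei 4 of 16 were above 0 in each line, with ranges of −0.32 to 0.16 and −0.33 to 0.15. With the genes split into 3 groups by matches per kb, the cytoplasmic medians were −0.11, −0.04 and −0.01 in AGO1/2 and −0.07, −0.02 and −0.00 in AGO1/2/3, from the fewest matches to the most. In AGO1 they were −0.05, −0.04 and −0.07, and in AGO2 −0.03, −0.06 and −0.05. These are differences of medians over genes and carry no test.

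Other gene groups were described in the same way, as long 3′ UTR genes of lists of textbook functions in AGO1/2/3, where 29.1% of all genes were called higher and 29.5% lower in the nucleus and 18.6% and 20% in the cytoplasm. Of 25 transcription factors with long 3′ UTRs 21 were tested, 5 rose and 11 fell (median −0.23), while the other 23 tested had 10 higher and 10 lower (median 0.06). Among 9 transporters and ion channels tested, 1 rose and 4 fell, and their cytoplasmic median was −0.62, with 1 higher and 5 lower of 8. The other genes of that list had 6 higher and 1 lower of 13 in the nucleus (median 0.33), and 3 and 2 of 12 in the cytoplasm. Of 20 receptors, kinases and signalling genes, 6 rose and 6 fell in the nucleus (median 0.01), and 9 rose and 7 fell in the cytoplasm (median 0.19).

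The lists closer to the 3′ UTR itself held few long 3′ UTR genes. Of 9 genes for 3′ UTR binding proteins, 2 rose and 1 fell in the nucleus and 4 rose and 1 fell in the cytoplasm. Of 12 ubiquitin ligases 5 rose and 4 fell in the nucleus, against 8 and 9 of the 22 others of that list. Of 7 chromatin regulators 0 rose and 3 fell at an adjusted p of 0.05, against 9 and 12 of 33 others. The 3 genes of deadenylation and decay had 1 higher and 1 lower, and the 2 of 3′ end processing had 0 higher and 0 lower in the nucleus and 2 lower in the cytoplasm.

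Whether the cytoplasmic and nuclear effects of the AGO1/2/3 knockout differed was tested with an interaction term on 12 libraries. Of 1045 long 3′ UTR genes, 129 had a more positive change in the cytoplasm and 79 in the nucleus, with 6.64% and 10.3% of all 18916 genes called in these directions. For the 3337 short 3′ UTR genes tested the counts were 131 and 558. Of 138 genes with 10000 nt or more, 34 were more positive in the cytoplasm and 4 in the nucleus, with a median of 0.23, against −0.04 over all genes. With passage as a block the counts for long 3′ UTR genes were 221 and 178. The shares of all genes above belong to the fit without a block, and none is given with it. Same-passage libraries of the fractions deviated together in the wild type and not in AGO1/2/3.

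Large examples were POU5F2, TRIM66, ELFN2 and AGO1. POU5F2, a POU domain factor, stood at 22.1, 27.3 and 21.8 CPM in wild-type nuclei and 7.63, 6.95 and 4.67 CPM in AGO1/2/3 nuclei. Its cytoplasmic level was at most 0.719 CPM in wild type and 0.444 CPM in AGO1/2/3 (interaction 1.53 ± 0.34, adjusted p = 0.012). TRIM66, a tripartite motif protein, fell in the nucleus from 19.3, 19.3 and 20.9 to 10.0, 9.60 and 7.21 CPM, and its interaction of 1.42 ± 0.36 (adjusted p = 0.021) no longer passed without any 1 of 4 libraries. ELFN2, which had 29.6, 23.5 and 34.4 CPM in wild-type nuclei, rose there to 61.5, 47.6 and 67.3 CPM, and in the cytoplasm it had 43.0, 56.2 and 32.2 CPM in wild type and 33.9, 32.9 and 40.1 CPM in AGO1/2/3 (interaction −1.29 ± 0.29, adjusted p = 0.012).

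ZBTB20, a zinc finger repressor with a 3′ UTR of 24505 nt, showed a similar split. It rose in AGO1/2/3 cytoplasm from 275, 267 and 204 to 434, 508 and 475 CPM (0.92 ± 0.10, adjusted p = 4.6e-06). In the nucleus it stood at 718, 700 and 517 CPM in wild type and 709, 681 and 660 CPM in AGO1/2/3, which overlapped. The nuclear value of 0.08 turned to −0.75 with counts scaled by transcript length and to −0.03 without the wild-type library of passage 29. Its MANE_Select transcript was not in the files.

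In the wild type alone, the long 3′ UTR genes were spread evenly over the fractions. Of 1027 tested, 292 were higher in the cytoplasm and 343 in the nucleus, with 34.8% and 35.9% of all 17523 genes called, and the median of cytoplasm minus nucleus was −0.06. With passage as a block, 370 and 435 were called, while the shares of all genes above belong to the fit without it. The 136 genes with 10000 nt or more leaned to the nucleus (25 against 71, median −0.37), and the 3165 short 3′ UTR genes to the cytoplasm (1582 against 675, median 0.46). These differences are between fractions scaled separately to their own totals. AGO3 and GRIN2B were nuclear (−0.96 ± 0.12 and −1.30 ± 0.22).

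The length of the 3′ UTR in use was followed as the mean over a gene's coding transcripts weighted by their TPM. This measure rests on short reads divided among annotated isoforms and detects no unannotated poly(A) site. In AGO1/2/3 nuclei 36 of 545 long 3′ UTR genes were longer and 92 shorter, with 4.77% and 8.22% of all 6838 genes called (limma, adjusted p of 0.05 and a change of 0.1 on the log2 scale). The median log2 change of the 545 was −0.0095. Of 78 with 10000 nt or more, 2 were longer and 23 shorter. In the cytoplasm 4 of 506 were longer and 3 shorter, with 0.534% and 0.409% of all 6362 genes called.

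The largest nuclear shortenings were in HEMK1, a methyltransferase of release factors, and NOPCHAP1, a chaperone of snoRNP assembly. For NOPCHAP1 the weighted 3′ UTR was 13952, 13323 and 21228 nt in wild type and 5709, 6314 and 6442 nt in AGO1/2/3 (−1.36 ± 0.21, limma adjusted p = 0.0013). Its nuclear RNA fell at the same time from 163, 159 and 127 to 70.0, 72.3 and 68.2 CPM. For HEMK1 it was 10232, 15278 and 8303 nt in wild type and 4376, 3880 and 2820 nt in AGO1/2/3 (−1.59 ± 0.23, adjusted p = 0.00082). In neither gene did the groups overlap. The MANE_Select transcript of HEMK1, deposited at 6087 nt against a current 16993 nt, was not part of this measure.

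The largest nuclear lengthenings were in SLC35A3, a UDP-GlcNAc transporter of the Golgi (from 1035, 1743 and 1602 to 2266, 2629 and 2225 nt), and in MGAT4A, an enzyme of N-glycan branching (from 1915, 2463 and 2227 to 3647, 3681 and 3351 nt). The log2 changes were 0.73 ± 0.21 and 0.70 ± 0.12 (limma adjusted p = 0.032 and 0.0017). In the cytoplasm PCNX4 and QSOX1, a sulfhydryl oxidase, shortened by 0.61 and 0.55, and DENND5B, a Rab activator, and AK4, a mitochondrial adenylate kinase, lengthened by 0.44 and 0.26. QSOX1 stood at 2656, 2955 and 2852 nt in wild type and 1924, 1839 and 2031 nt in AGO1/2/3 cytoplasm. The MANE_Select transcripts of PCNX4 (deposited at 4666 nt against a current 18069 nt) and SLC35A3 (14759 nt against 14321 nt) were not part of this measure. The calls of PCNX4, QSOX1, AK4 and SLC35A3 were lost when only the 2 groups compared were in the fit. The call of AK4 was also lost without any 1 of 6 libraries, that of PCNX4 without any 1 of 5, that of SLC35A3 without any 1 of 4 and that of DENND5B without any 1 of 3.

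The genes at the border of the rule moved in both directions. PLXNA2, a semaphorin coreceptor, and SLC2A13, a myo-inositol transporter, have 3′ UTRs of 5001 nt, and their nuclear changes in AGO1/2/3 were −1.27 and −1.68. For PLXNA2, at 1.83, 1.67 and 4.85 CPM in wild-type nuclei, the value was −0.59 and no longer passed without the wild-type library of passage 29. Just under the limit, PRKAR2A, a regulatory subunit of protein kinase A, changed by 0.40, and KCTD12, an auxiliary subunit of GABA-B receptors with 4996 nt, by −1.49.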

How the data were processed

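The deposited tables are Salmon output per transcript, with 2 units made by the authors: the estimated count (number of reads assigned to a transcript) and the TPM (a length-scaled share of a library's transcripts). The submitters' processing notes name STAR 2.5.3a, Salmon 0.11.0, DESeq2 and hg38. Per the study's methods STAR aligned the quality-filtered reads, and Salmon and DESeq2 followed. The methods and the notes give different versions of STAR and Salmon, and the annotation release named in the methods could not be matched to hg38, so the release behind the files is uncertain. Libraries were strand-specific whole-transcriptome RNA-seq of 30 fractions. The 8 eCLIP samples were not analysed here.

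Transcripts were matched to GENCODE release 44 by identifier without version (97.7% of 200401), and unmatched transcripts held 2.23% to 4.01% of reads. Estimated counts were summed per gene and rounded. edgeR 4.0.16 (TMM, filterByExpr with a count of 10, quasi-likelihood test) was fitted per fraction on 15 libraries, with Benjamini-Hochberg adjustment over all genes tested and calls at 0.05. The interaction used 12 libraries and the wild-type fractions 6. CPM values use TMM library sizes. Isoform lengths weighted by TPM were tested with limma 3.58.1 on log2 lengths (0.01 TPM added per transcript, mean coding TPM of at least 1). A gene at 0 throughout a group was given a bound from 3 counts per library.

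The members, lists and tests were chosen with earlier results of these data known. Genes named are those with the largest called change per comparison (3 higher and 3 lower in AGO1/2 and AGO1/2/3, 1 and 1 in AGO1 and AGO2, mean of at least 5 CPM, no overlap), the 3 steadiest higher and lower in all 8 comparisons, the 2 largest interactions and isoform changes per direction, list members, the 3 longest 3′ UTRs and those at the border. The others lower in all 8 are named by that count. Some genes and 1 sequence chosen by these rules are not reported here.

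Same-passage fractions of the wild type deviated together (r = 0.255, 0.242 and 0.538 over genes), those of AGO1/2/3 did not (−0.010, 0.057 and 0.045). No 2 libraries were identical, and replicates differed by more than counting noise. Alternatives tried were DESeq2 1.42.0, RLE scaling, other filters, length-scaled counts, limma on TPM, MANE_Select reads only, other length limits, pairs of groups and leaving out each library. The fits were tested on simulated data with known changes.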

Additional observations from a re-analysis of the deposited data

Results flagged for a closer look

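Among the genes named above, 14 had an AGO1/2/3 knockout effect that differed between cytoplasm and nucleus by the interaction test (edgeR, adjusted p of 0.05). The interaction, as the cytoplasmic minus the nuclear log2 change, was negative for AGO1 (−1.56), ELFN2 (−1.29) and QSOX1 (−0.76). It was positive for POU5F2 (1.53), TRIM66 (1.42), ZBTB20 (0.86), SLC35A3 (0.85), ONECUT2 (0.78), HEMK1 (0.76), AGO3 (0.66), NOPCHAP1 (0.60), AGO2 (0.57), SMAD2 (0.49) and PCNX4 (0.45). Of these, 11 are positive and 3 negative, and some were named because their interaction was among the largest. The nuclear RNA markers of the nuclear fraction differed between genotypes as given in the report, and their part in these differences was not tested.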

How the results depend on the processing

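Counts of long 3′ UTR genes called are given here for the cytoplasm and then the nucleus, each in the order of the 4 lines. They stand without the share of all genes called at each setting, so they describe the processing and not the long 3′ UTR genes. With a limit of 4000 nt, 85, 129, 498, 385, 153, 280, 645 and 552 were higher and 214, 259, 560, 469, 525, 541, 599 and 590 lower. With a limit of 8000 nt, 18, 29, 81, 61, 22, 39, 82 and 75 were higher and 38, 43, 102, 86, 116, 120, 141 and 143 lower. Among genes whose deposited transcript was within 500 nt of its current length, 31, 53, 188, 143, 55, 109, 238 and 207 were higher and 86, 103, 241, 187, 229, 218, 240 and 239 lower. With limma on log2(TPM + 1), 18, 16, 93, 95, 9, 20, 267 and 129 were higher and 233, 404, 627, 491, 480, 486, 369 and 471 lower. With limma on log2(TPM + 0.1), 17, 13, 94, 91, 8, 21, 263 and 128 were higher and 222, 402, 631, 488, 468, 484, 371 and 466 lower. With reads of the MANE_Select transcript only, 33, 51, 236, 175, 39, 49, 141 and 130 were higher and 44, 88, 233, 173, 297, 326, 453 and 420 lower. With only the 2 groups compared in the fit, 25, 35, 234, 184, 64, 112, 322 and 261 were higher and 54, 98, 266, 231, 209, 272, 337 and 353 lower. With counts scaled by transcript length, 213 were lower in AGO1 nuclei, against 337. The nuclear median of long minus short was −0.22, −0.21, −0.20 and −0.19 at 4000 nt, −0.27, −0.30, −0.41 and −0.38 at 8000 nt, −0.26, −0.25, −0.29 and −0.24 with a mean count of at least 50, −0.17, −0.16, −0.16 and −0.18 with no filter, −0.18, −0.17, −0.17 and −0.15 on log2(TPM + 1) and −0.34, −0.33, −0.55 and −0.42 with MANE_Select reads only. In the cytoplasm the same difference changed sign for AGO1/2 at 4000 nt (from −0.04 to 0.0050) and for AGO1/2/3 with a mean count of at least 50 (from −0.01 to 0.00066) or without passage 11 (0.012, with −0.044 to 0.012 over the libraries left out), and for AGO1 it was −0.048 with no filter.

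Leaving out 1 library at a time gave 35 to 57 higher in AGO1 cytoplasm, with 35 without AGO1 passage 7, and 63 to 131 lower, with 64 without passage 6 and 63 without passage 7. It gave 53 to 85 higher in AGO2 cytoplasm, with 53 without AGO2 passage 9 or 10, and 96 to 153 lower, with 96 without passage 8. The interaction gave 84 to 208 genes more positive in the cytoplasm, with the lowest count without nuclear AGO1/2/3 passage 14 (84) and the highest without nuclear wild-type passage 29 (208). It gave 40 to 153 more positive in the nucleus, with 153 without cytoplasmic wild-type passage 29, 49 without nuclear wild-type passage 27 and 40 without nuclear wild-type passage 28. DESeq2 gave 204 more positive in the cytoplasm. With passage as a replicate block the counts were 221 and 178, against 129 and 79 without it. Same-passage deviations of both fractions correlated at 0.242 to 0.538 in the wild type and at −0.01 to 0.0566 in AGO1/2/3, so passage paired the fractions in the wild type and was not seen to in AGO1/2/3. In the wild type alone the block gave 370 genes higher in the cytoplasm and 435 in the nucleus, against 292 and 343. No share of all genes called is given for the fits with a block. No paired analysis of a knockout against wild type was possible because they share no passage number. For isoform use in the cytoplasm, 1 TPM added to each transcript gave 18 longer and 23 shorter, no filter 7 and 12, and 2 groups in the fit left 1 shorter, against 4 and 3. Without any 1 library 2 to 3 were longer, with 2 without passage 11, 12 or 14 of AGO1/2/3 or passage 27 or 28 of wild type. In the nucleus 2 groups in the fit gave 18 longer and 55 shorter, against 36 and 92.

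Of 98 results for single genes, 67 kept direction and call under every alternative run, 25 lost or gained the call in at least 1, and 6 changed sign in at least 1. With counts scaled by transcript length, log2(TPM + 1) and log2(TPM + 0.1), the AGO1/2/3 value of AGO2 in the cytoplasm was −0.14, −0.39 and −0.40, that of TRIM66 in the cytoplasm −0.61, −0.30 and −0.73, and that of ZBTB20 in the nucleus −0.75, −1.02 and −1.04. SMAD2 in the nucleus was 0.22 with counts scaled by transcript length, and TNRC6B in the cytoplasm −0.12 and −0.13 on log2(TPM + 1) and log2(TPM + 0.1). With 1 library left out, IGF1R in the cytoplasm was −0.939 to 0.293, with 0.293 without AGO1/2/3 passage 11. TRIM66 in the cytoplasm was −0.033 to 0.552, with −0.033 without AGO1/2/3 passage 12, and ZBTB20 in the nucleus −0.029 to 0.198, with −0.029 without wild-type passage 29. The 2 length limits and the match to the deposited length change how many genes are counted. For the other changes the cause was not tested. Depth was lowest in the nuclear wild type.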
